A study of Mus musculus with 4 samples.

Results

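The genes of the cytosolic ribosomal proteins were followed through the accessible chromatin of mouse bone marrow-derived macrophages (BMDMs). Overlapping peaks (1 bp or more) of 4 ATAC-seq libraries gave 60710 merged regions, and a region was taken as a member when the nearest gene of its highest peak carried a name of the Rpl or Rps series, Rplp0 to Rplp2 included and the Rps6 kinases left out. This gave 170 regions under 72 gene names. Of these, 84 regions of 66 genes lay within 1000 bp of the transcription start site (TSS) and are called promoter members, and the other 86 are called distal members. The names chose the members, and the height of a peak entered only by setting which name a merged region took.

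Each ribosome is built from a small subunit, which reads the mRNA, and a large subunit, which joins the amino acids, and both are shells of proteins around ribosomal RNA. The protein genes are scattered over the chromosomes, are transcribed in every cell and must be made in equal amounts, so they often serve as a housekeeping reference. Their transcripts usually start at a C followed by an unbroken run of pyrimidines, the terminal oligopyrimidine (TOP) tract, through which mTORC1 and LARP1 set how well these mRNAs are translated. Their promoters are mostly CpG-rich, lack a consensus TATA box in many cases and carry sites for ETS-family factors such as GABP, for YY1 and for SP1.

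ATAC-seq maps open chromatin by letting the Tn5 transposase insert sequencing adapters where DNA is exposed. The cells were wild-type (C57BL/6) bone marrow cells from mice of 8-12 weeks, grown into macrophages for 6 days with L929 supernatant, which supplies M-CSF. A total of 2 libraries came from untreated cells (control) and 2 from cells given IL-4 at 20 ng/ml for 1 h. IL-4 signals through STAT6 and turns macrophages towards the alternative state, and no gene was deleted in either group. The study describes the replicates as biological, but the labels do not tie a library to a mouse or a culture, so the spread between libraries may be partly technical.

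The start sites of ribosomal protein genes carried the pyrimidine run more often than other promoters did. RefSeq promoters on GRCm38.p6, the assembly behind mm10, were found for 53 of the 72 member gene names, and 75 promoters of 63 genes in that table matched the naming rule, genes without a peak included. A C at the annotated start followed by at least 4 C or T bases was present in 14 of these 75 promoters (18.7%, Wilson 95% interval 11.5 to 28.9%) against 823 of all 32851 promoters (2.5%). Among promoters with a peak in all 4 libraries within 250 bp of the start, the run was found in 8 of 50 (16.0%, 8.3 to 28.5%) against 217 of 9146 (2.4%). It was found in 0 of 53 accessible promoters of the mitochondrial ribosomal proteins, which allows a share of up to 6.8%. When the C could lie within 5 bases of the annotated start, the shares were 42.7% of the 75 and 18.3% of all promoters. Among accessible promoters they were 40.0% (27.6 to 53.8%) of the 50 ribosomal protein promoters and 19.9% of all 9146. The mitochondrial set then had 14 of 53 (26.4%, 16.4 to 39.6%), an interval that overlapped that of the 50, so its 0 held for the strict definition only. Some genes have several promoters that overlap, so the intervals cover counting error only.

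The 8 accessible promoters with the run are shown first, from 10 bases before the start to 20 bases from the start base on, with the run in capitals. They are followed by 4 genes that are named in the results below and whose annotated start lacks it.
Rps6 (chr4:86857348-86857377, - strand): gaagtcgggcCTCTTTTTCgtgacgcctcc
Rps10 (chr17:27635225-27635254, - strand): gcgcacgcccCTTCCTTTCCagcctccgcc
Rps27 (chr3:90213629-90213658, - strand): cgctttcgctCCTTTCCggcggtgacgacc
Rpl14 (chr9:120571507-120571536, + strand): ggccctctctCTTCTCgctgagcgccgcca
Rpl28 (chr7:4792955-4792984, + strand): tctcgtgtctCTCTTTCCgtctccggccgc
Rpl35 (chr2:39005112-39005141, - strand): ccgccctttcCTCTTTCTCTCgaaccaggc
Rpl35a (chr16:33056472-33056501, + strand): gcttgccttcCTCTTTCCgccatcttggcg
Rplp2 (chr7:141447641-141447670, + strand): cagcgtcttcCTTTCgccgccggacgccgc
Rps3 (chr7:99483690-99483719, - strand): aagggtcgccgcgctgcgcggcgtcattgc
Rpl5 (chr5:107900518-107900547, + strand): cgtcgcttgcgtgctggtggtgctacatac
Rpl11 (chr4:136053374-136053403, - strand): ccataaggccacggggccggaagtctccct
Rplp0 (chr5:115559457-115559486, + strand): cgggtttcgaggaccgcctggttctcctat
Rps6, the small-subunit protein phosphorylated downstream of mTORC1, had a run of 9 bases, and Rpl35 had the longest of these, at 11 bases. The same 8 promoters lay between percentiles 10.7 and 68.8 of promoter peak height, so the run was seen at weak peaks and at peaks moderately above the middle.

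The upstream DNA of these promoters was searched on both strands for CCGGAAG (ETS), AAGATGGC (YY1), GGGCGG (SP1) and TATAAA, from 250 bases before to 50 bases after the start. In the accessible promoters, the ETS motif was present in 17 of 50 (34.0%, Wilson 95% interval 22.4 to 47.8%) against 21.2% of all 9146, and the mitochondrial ribosomal protein promoters had the same share (34.0% of 53). The SP1 motif was present in 62.0% (48.2 to 74.1%) against 68.3%, the YY1 motif in 8.0% (3.2 to 18.8%) against 5.1%, and TATAAA in 12.0% (5.6 to 23.8%) against 5.7%. For SP1, YY1 and TATAAA the interval covered the share of all promoters, and for ETS it did not. The median GC content of the 50 promoters was 58.5% with 23.0 CpG, against 62.0% and 22.0 CpG for all accessible promoters, so base composition was much alike.

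**Figure D1:**
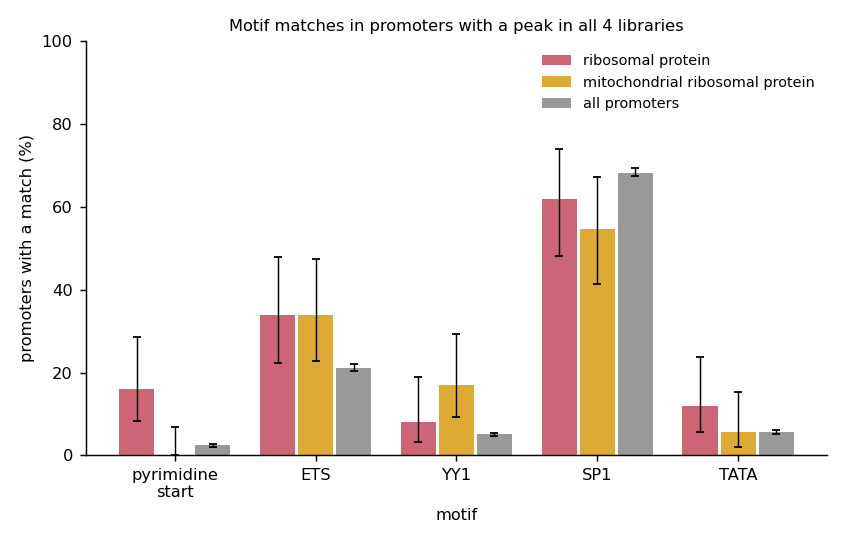
Share of promoters (percent, y axis, from 0) that hold each motif (x axis), for 50 ribosomal protein promoters, 53 mitochondrial ribosomal protein promoters and 9146 promoters of any gene, each with a peak in all 4 libraries within 250 bp. Bars are shares and whiskers Wilson 95% intervals; the pyrimidine start stands at 16.0%, 0% and 2.4%, and the ETS motif at 34.0%, 34.0% and 21.2%.

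Whole promoters, from 250 bases before to 20 bases from the start on, are given for 2 genes on which the results below turn and for Rps6. Capitals mark ETS and SP1 matches and the outer TTC and GAA of a STAT6-type match, in which 4 bases separate them.
Rps6 (chr4:86857348-86857617, - strand): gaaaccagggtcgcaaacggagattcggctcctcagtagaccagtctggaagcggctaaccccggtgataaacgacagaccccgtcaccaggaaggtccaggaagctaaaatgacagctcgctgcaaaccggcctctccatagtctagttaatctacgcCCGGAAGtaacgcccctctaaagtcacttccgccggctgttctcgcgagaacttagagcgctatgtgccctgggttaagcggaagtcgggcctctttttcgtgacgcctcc
Rps3 (chr7:99483690-99483959, - strand): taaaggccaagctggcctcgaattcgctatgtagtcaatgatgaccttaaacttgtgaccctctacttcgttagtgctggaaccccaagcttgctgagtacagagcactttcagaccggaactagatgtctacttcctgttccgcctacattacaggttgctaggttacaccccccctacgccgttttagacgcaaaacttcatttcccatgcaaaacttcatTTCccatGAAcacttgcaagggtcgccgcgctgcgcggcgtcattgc
Rps27l (chr9:66945836-66946105, + strand): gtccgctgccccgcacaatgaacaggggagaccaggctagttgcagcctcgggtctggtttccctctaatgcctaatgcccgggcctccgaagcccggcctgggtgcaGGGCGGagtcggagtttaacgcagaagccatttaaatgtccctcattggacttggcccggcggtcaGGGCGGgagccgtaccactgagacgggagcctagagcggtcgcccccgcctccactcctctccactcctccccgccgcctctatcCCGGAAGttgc
Over the stretch shown, the promoter of Rps6 held 1 ETS match, that of Rps27l held 2 SP1 matches and 1 ETS match, and that of Rps3 held none of the 4 housekeeping motifs but 1 STAT6-type match that began 27 bases before the start.

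The libraries held 45250 and 41885 peaks (control) and 41978 and 39462 peaks (IL-4). Peak height means here the deposited peak score, read as −log10 of the MACS2 q-value, which grows with sequencing depth. The files give no read counts, so the depth is unknown. The median height over all peaks was lowest in the second IL-4 library (6.41, against 7.46 to 8.04 in the other libraries). A change in accessibility per cell and a change in the share of cells that are open cannot be told apart in such bulk data. Of 8 macrophage markers, Cd68, Itgam, Lyz2 and Fcgr1 had a peak within 1000 bp of the start in all 4 libraries and Mrc1 in 3. Csf1r (height 15.6 to 28.86, 3135 bp into the gene) and Adgre1, listed as Emr1 (12.87 to 19.93, 11473 bp upstream), had peaks elsewhere. No region within 1000 bp of a start carried the name Spi1. Other names of Spi1 were not searched, so whether its promoter was open is not known from this count. The T cell markers Cd3e, Cd3d, Cd4 and Cd8a, the B cell markers Cd79a and Ms4a1 and the erythroid marker Klf1 had no peak within 1000 bp of the start under these names.

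Most, but not all, ribosomal protein genes had an open promoter in these macrophages. Of the 80 genes of the mouse ribosome, 65 had a promoter region under their own name, and 53 of the 80 (66.2%) had one with a peak in all 4 libraries. By subunit, these were 21 of 33 small-subunit genes and 32 of 47 large-subunit genes. By region, 53 of the 84 promoter members (63.1%) had a peak in all 4 libraries, against 60.6% of the 15047 promoter regions of any gene. The number of promoter members with a peak was 69 and 67 for control and 69 and 64 for IL-4. By gene name, 53 of 66 (80.3%) had a promoter region in all 4 libraries against 8264 of 10779 (76.7%) for any gene. Both shares count only names with a promoter region in some library, so they describe how often a detected promoter recurred. Among RefSeq promoters with or without a peak, 50 of the 75 ribosomal protein promoters had a peak in all 4 libraries within 250 bp. For promoters of any gene this was 9146 of 32851, a smaller share.

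The 15 genes without a promoter region under their own name fell into 3 kinds. For 7 of them a region near the start was named after another gene. The start sites of Rps18 (region named Vps52), Rps25 (Trappc4), Rps28 (Ndufa7), Rpl7a (Med22) and Rpl18 (Sphk2) lay inside such regions, and the heights for Rps25 were 9.5 and 6.73 (control) and 7.73 and 9.13 (IL-4). Near the start of Rpl4 only the second IL-4 library had a weak peak (2.49, named Zwilch), and Rack1, a signalling scaffold on the small subunit, was listed under its older name Gnb2l1. Rps21, Rpl13a, Rpl15 and Fau had no region within 1000 bp of the annotated start. Rpl13a is known for its part in the interferon-gamma-activated block of translation in macrophages. The other 4, among them Rps29 and Rpl3, were not in the promoter table.

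A further 12 genes of the list had a promoter region but none with a peak in all 4 libraries, and their peaks were low. Rps9 (3.69) and Rpl12 (6.7) had a peak in the first IL-4 library alone. Rpl29, Rpl6, Rpl26 and Rps15a had peaks in 3 libraries, with heights of 3.24 to 11.78. Rpl8 had heights of 4.19 in the second control and 7.09 in the second IL-4 library, and Rpl19 of 3.44 in the second control and 4.63 in the first IL-4 library. For Rpl34 only a peak of 6.08 in the second control library carried the name of the gene, while the region over its start, named after the pseudogene Rpl34-ps1, was higher than every promoter member in 3 of the 4 libraries (49.88 and 30.91 in control, 43.34 and 28.46 in IL-4 libraries). Rpl32 and Rpl36 are described with the regions seen in a single group.

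Where a promoter was open, the region sat over the start site. Of 67 promoter members with an annotated start in the table, 48 covered it, namely 38 of 42 with a peak in all 4 libraries but 4 of 13 with a peak in a single library. The median region in all 4 libraries ran from −233 bp to 190 bp relative to the start. The peak centre was upstream for 77.4% of the 53 promoter members in all 4 libraries, against 65.9% of all promoter regions of that kind, and the median width was 434 bp against 420 bp. More than 1 promoter region was seen at 14 genes, with up to 4 at Rpl10, whose product joins the large subunit late in its assembly. The region 413 bp downstream of the start of Rplp0 had heights of 5.03, 7.48 and 5.42 in 3 libraries, and that 67 bp downstream at Rpl38 had 8.13 in the second control and 9.66 and 2.62 in the IL-4 libraries.

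**Figure D2:**
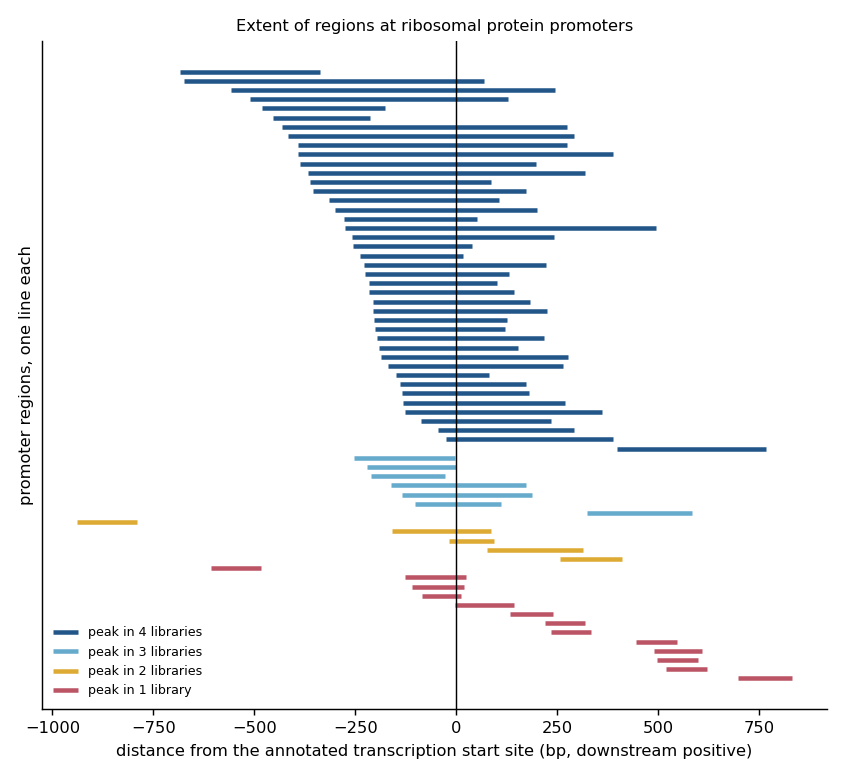
Extent of 67 promoter regions of ribosomal protein genes as distance from the annotated start site (bp, x axis, downstream positive), one line per region on the y axis, coloured by the number of libraries with a peak. Regions with a peak in all 4 libraries run across the start in 38 of 42 cases, and regions with a peak in 1 library lie mostly to one side of it.

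Ribosomal protein promoters were of middling height among promoters. For the 53 promoter members with a peak in all 4 libraries, median heights were 14.05 and 13.28 (control) and 12.00 and 8.91 (IL-4), against 13.91, 12.77, 13.18 and 10.39 for all 9118 promoter regions of that kind. Ranked within a library, the median member stood at percentiles 50.5 and 52.4 in control and 44.3 and 41.0 in IL-4 libraries (mean 47.1 ± 5.3, SD, n = 4 libraries). Over the mean of the 4 libraries, 2 members were at or above the 90th percentile and 3 were below the 10th.

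The highest promoter was that of Rpl22l1, a paralog of Rpl22, with 33.15 and 31.3 in control and 33.59 and 27.45 in IL-4 libraries. It was followed by Rpl37 (35.81, 21.14, 28.36 and 22.92, in the same order) and by Rpl30 (27.32, 32.01, 22.44 and 17.92). Rps13 (27.67, 26.19, 26.28 and 18.87) and Rps3a1 (25, 25.09, 23.4 and 26.14) came next, and these 5 lay between percentiles 89.1 and 96.1 of promoters. Rps3a1 varied least among them. The lowest promoters were those of Rps4x (7.47, 4.78, 3.19 and 6.12), the X-linked small-subunit protein, and Rpl23a (2.25, 9.22, 5.64 and 6.55), which lies at the exit of the peptide tunnel. Rps16 (8.98, 6.89, 8.24 and 2.44), Rpl35a (8.88, 5.33, 4.51 and 6.17) and Rpl39 (6.88, 10.07, 4.9 and 4.93) were the other low ones. The deposited annotation places the Rps4x region 952 bp upstream of its start, whereas the region covered the RefSeq start. The heights of these 5 varied up to several-fold between libraries of the same group.

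**Figure D3:**
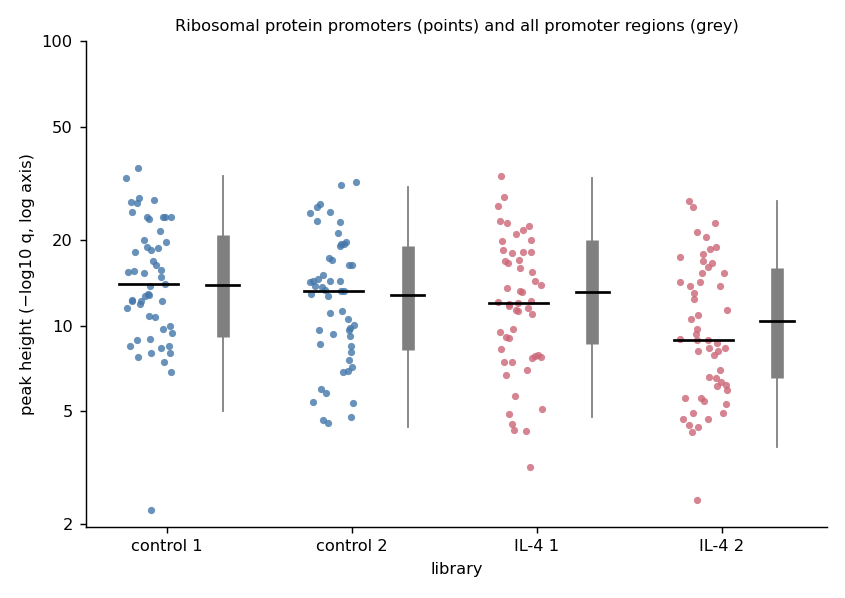
Peak height (−log10 q, y axis, log scale) in each of the 4 libraries (x axis). Points are the 53 promoter members with a peak in all 4 libraries (blue control, red IL-4) with their median as a line; grey bars span the 25th to 75th and thin lines the 5th to 95th percentile of all 9118 promoter regions, with the median as a line. The members' median lies just above that of all promoters in control (14.05 and 13.28) and below it in IL-4 libraries (12.00 and 8.91).

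Proteins with known special roles were spread over this range. The stalk recruits the translation factors. Among its genes, Rplp0 had 24.1 and 19.73 in control and 18.11 and 13.82 in IL-4 libraries, with both IL-4 values below both control values, whereas the groups overlapped at Rplp1 (13.77, 8.63, 18.13 and 8.91). At Rplp2 (8.45, 9.79, 7.9 and 8.12) both deposited IL-4 values were the lower ones, but the groups overlapped after normalisation. These Rplp2 heights are those of a region 342 bp upstream that did not cover the start. The Rplp2 region over the start had 3.57 and 8.67 in control and 8.97 in the first IL-4 library, with no peak in the second. Rps19, the gene most often mutated in Diamond-Blackfan anaemia, had 24.17, 14.61, 17.07 and 15.27, with overlapping groups. Rps6 had 18.77, 19.03, 18.51 and 10.52, which were apart as deposited and overlapped after normalisation. Rps27a, which is made as a fusion with ubiquitin, had a low promoter peak of 12.84, 4.56, 4.28 and 6.32. Rpl10 had 10.84, 6.93, 13.28 and 6.99 in a region 501 bp upstream that did not cover the start. The log2 differences of these 7 genes, IL-4 minus control, lay between −0.31 and 0.46, within or near their SE of 0.30 to 0.55.

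IL-4 for 1 h left no ribosomal protein region with a difference that passed the test. The heights were put on the log2 scale, quantile-normalised over the 25442 regions found in every library, and compared with limma. Of the 80 members among them, 0 were called higher and 0 lower at an adjusted p below 0.05, beside 0.0157% of all regions called higher and 0.00786% called lower. The lowest adjusted p among the members was 0.319. At an unadjusted p below 0.05, 4 members (5.0%) were higher and 4 (5.0%) lower, against 4.12% and 4.15% of all regions. Without normalisation the split was 0 higher and 5 lower, against 1.14% and 7.43% of all regions. Both IL-4 values lay above both control values, after normalisation, at 9 members (11.2%) and below them at 15 (18.8%), against 19.2% and 18.6% of all regions. None of these shares set the members much above the background. Only regions with a peak in all 4 libraries could be compared, which left out 90 of the 170.

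Of the promoters, that of Rps3 had the most negative log2 difference. Rps3, a protein of the mRNA entry site with a further role in DNA repair, had heights of 14.79 and 19.29 in control and 7.82 and 4.69 in IL-4 libraries. The groups did not overlap, and the log2 difference was −1.26 ± 0.45 (SE; adjusted p = 0.389, limma). Rps27l, a p53-induced paralog of Rps27, had 23.73 and 19.42 in control and 9.08 and 7.86 in IL-4 libraries (−1.14 ± 0.37; adjusted p = 0.319). Rpl11, which with Rpl5 and 5S rRNA forms the particle that binds and blocks Mdm2, had 12.3 and 14.32 against 5.1 and 5.29 (−1.12 ± 0.49; adjusted p = 0.539). All 3 promoters were lower in both IL-4 libraries by more than the control libraries differed. Rps2, which lines the mRNA entry channel (15.43 and 17.33 against 10.95 and 5.58) and Rpl36a, near the exit site of tRNA (15.71 and 11.1 against 9.49 and 4.92) had log2 differences of −0.83 ± 0.42 and −0.72 ± 0.46 and no overlap either. Without IL-4 replicate 2 these differences were −0.51 and −0.40.

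The most positive log2 difference of a promoter was at Rpl5, the partner of Rpl11 in the 5S particle. Its heights were 8.03 and 7.17 in control and 13.91 and 12.38 in IL-4 libraries, without overlap (1.03 ± 0.45; adjusted p = 0.539). Rpl14 had 11.95 and 8.08 in control and 13.54 and 16.62 in IL-4 libraries (0.83 ± 0.40; adjusted p = 0.590), again without overlap. Rpl23a (0.69 ± 0.58), Rpl7 (0.63 ± 0.42; 7.75 and 13.28 against 15.46 and 11.35) and Rps14 (0.56 ± 0.42; 8.46 and 12.71 against 12.0 and 14.19) had groups whose deposited heights overlapped. The value of Rpl23a rested on 1 library, since its log2 difference was −0.44 without control replicate 1, in which its height was 2.25. Without the same library Rpl7 was at 0.13 and Rps14 at 0.17, and without IL-4 replicate 2 Rps14 was at 0.28 and Rpl14 at 0.52, so these values also leaned on 1 library. Without control replicate 2 the values were 1.13 for Rpl7 and 0.95 for Rps14. Rpl5 and Rpl11, whose products act together, thus stood at opposite ends, although neither passed the test.

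Counted over promoters alone, the groups were apart after normalisation at 5 of the 53 members in the direction of higher IL-4 values (9.4%, against 20.2% of all promoter regions) and at 8 in the direction of lower values (15.1%, against 14.8%). Besides Rpl5, Rpl14 and Rpl7, the first kind held Rpl37a (12.91 and 12.94 in control, 16.62 and 14.19 in IL-4 libraries; 0.47 ± 0.36, SE) and Rpl13 (8.04 and 8.5 against 9.15 and 8.31; 0.33 ± 0.48). Besides the 5 most negative promoters and Rplp0, the second kind held Rpl30 (−0.41 ± 0.25) and Rpl10a (9.93 and 9.68 against 7.42 and 4.41; −0.54 ± 0.51). Rpl37a, Rpl13 and Rpl10a were named after their values were seen.

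**Figure D4:**
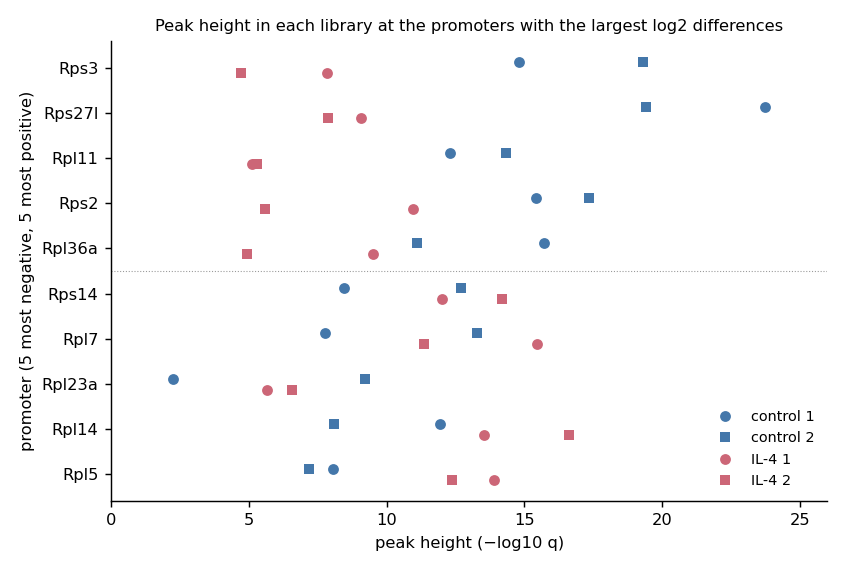
Peak height (−log10 q, x axis) in each library at the 5 promoters with the most negative (upper) and the 5 with the most positive (lower) log2 difference (y axis). Blue marks are control and red marks IL-4 libraries, circles replicate 1 and squares replicate 2; the groups are apart for Rps3, Rps27l, Rpl11, Rps2, Rpl36a, Rpl14 and Rpl5 and overlap for Rps14, Rpl7 and Rpl23a.

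As a set, the members were slightly lower in the IL-4 libraries relative to other regions. The median log2 difference was −0.132 over the 80 members (quartiles −0.395 and 0.111), with 53 of them (66.2%) below 0, against a median of −0.001 and 50.1% below 0 over all regions tested. For the 53 promoter members it was −0.112 with 35 below 0, against 0.041 with 4153 of all 9118 promoter regions below 0. The difference was small beside the spread between single members (SD 0.483), and it rested largely on control replicate 1. Without that library the median of the members was −0.033. The median SE of a promoter member was 0.412, and 46 of the 53 lay inside the 5th to 95th percentile of all promoters of like height, with Rpl5 and Rpl14 above and Rpl11, Rpl36a, Rps2, Rps27l and Rps3 below.

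By subunit, the median was −0.153 over 20 small-subunit promoters, 16 of them below 0, and −0.081 over 31 large-subunit promoters, 18 of them below 0. The range was −1.26 to 0.56 for the small and −1.12 to 1.03 for the large subunit, and the 2 medians were not tested against each other. The 8 accessible promoters with a pyrimidine start had log2 differences between −0.23 (Rps6) and 0.83 (Rpl14).

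**Figure D5:**
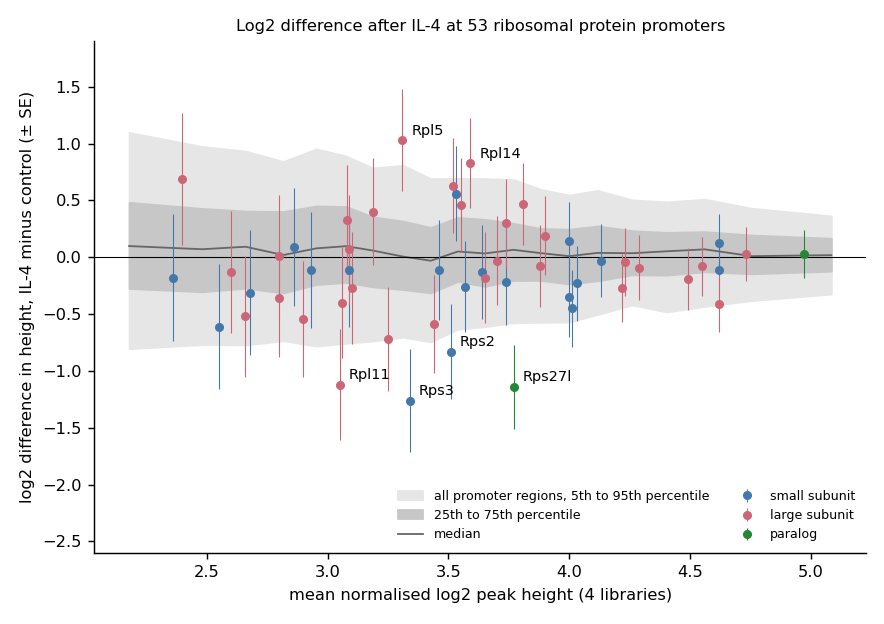
Log2 difference in peak height, IL-4 minus control (y axis, ± SE), against mean normalised log2 height (x axis) for the 53 promoter members with a peak in all 4 libraries, coloured by subunit. Grey bands are the 25th to 75th and 5th to 95th percentile of all 9118 promoter regions of like height; 46 members lie inside the wider band, 2 above and 5 below.

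STAT6-type matches were present at some of these regions. In windows of 300 bp centred on each region, TTC and GAA separated by 4 bases, the spacing bound by STAT6, occurred in 9 of 53 promoter members (16.98%, Wilson 95% interval 9.2 to 29.23%) against 378 of 9118 promoter regions (4.15%). With a spacing of 3 bases, as bound by other STAT proteins, the shares were 5.66% and 5.55%. Over all 80 members, 10 windows (12.5%) held the 4-base spacing, against 7.72% of all regions and 9.71% of distal ones. In the RefSeq promoters, from 250 bases before to 50 bases after the start, the 4-base spacing was present in 5 of the 50 accessible ribosomal protein promoters (10.0%, Wilson 95% interval 4.3 to 21.4%) against 5.3% of all 9146, a share that the interval covered. It was present in 6.7% of the 75 ribosomal protein promoters with or without a peak, against 7.0% of all 32851. The matches of 9 of these 10 regions are shown on the genomic plus strand of GRCm38.p6, with the outer bases in capitals, so that they can be set beside the change of each region.
Rps3 (chr7:99483717-99483746, + strand): cttgcaagtgTTCatggGAAatgaagtttt
Rps2 (chr17:24720110-24720139, + strand): cttcttcttcTTCgggaGAAcacgtgagtc
Rps4x (chrX:102189324-102189353, + strand): actcgccttcTTCcggcGAAcgaagaaatt
Rpl28 (chr7:4792802-4792831, + strand): cgccgggaccTTCagacGAAgagctccgaa
Rpl35 (chr2:39005108-39005137, + strand): agcagcctggTTCgagaGAAagaggaaagg
Rpl10 (chrX:74270199-74270228, + strand): aacacgtcttTTCctgaGAAttagagtggg
Rplp1 (chr9:61914487-61914516, + strand): cggccttagcTTCctcgGAAggaccgagca
Rpl23a (chr11:78183648-78183677, + strand): aatatgaggcTTCttggGAAttgtagttcc
Rpl23a (chr11:78183724-78183749, + strand): ttgaaagggcTTCttggGAAatgtgg
Rpl5 (chr5:107923062-107923091, + strand): ttagtcaccaTTCtgcaGAAgctcaggagc
The sites are ordered by log2 difference except that Rpl23a has 2, and the Rpl5 site is that of a distal region. The differences ran from −1.26 at Rps3 to 1.01 at Rpl5, with 4 of the 9 regions below 0 and 5 above, and none passed the test. A match is a run of letters, and binding of STAT6 was not measured in these files.

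Other genes of translation gave no call either. Among ribosome components outside the naming rule, Rack1 (as Gnb2l1) had a promoter height of 19.29 and 17.8 in control and 7.45 and 6.18 in IL-4 libraries, with no overlap and a log2 difference of −1.23 ± 0.41 (SE; adjusted p = 0.363, limma). Rpsa, the laminin receptor protein of the small subunit, had 21.44 and 18.05 against 13.08 and 12.45 (−0.42 ± 0.33), with deposited heights that did not overlap either. Of 24 regions of translation factors and related TOP genes, 0 were called in either direction, and the median log2 difference was 0.057. The promoter of Eef1a1, the factor that brings aminoacyl-tRNA to the ribosome, had 22.65 and 19.8 against 20.31 and 14.67 (−0.10 ± 0.30). Of 69 regions of mitochondrial ribosomal proteins 0 were called, with a median of −0.041.

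Distal members were mostly far from the gene whose name they carried. Of the 86, 41 were intergenic and 45 lay inside a transcript, which was that of another gene in 41 cases and of the gene itself in 4. They were named after a ribosomal protein gene because its start was the nearest. A total of 65 lay over 10000 bp away, and the median distance was 23738.5 bp. Rps14 accounted for 9 of them and Rplp1 for 8. A peak in all 4 libraries was present at 27 of 86 (31.4%), against 35.7% of all distal regions.

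The highest distal members were 2 intergenic regions. That 29810 bp upstream of Rps14 had 37.38 and 26.85 in control and 39.47 and 25.1 in IL-4 libraries, higher than any promoter member by its mean, and that 288670 bp downstream of the start of Rps24 had 29.18, 20.11, 19.49 and 22.67. A region 6921 bp downstream of the start of Rps28, in an exon of Kank3, had 23.28, 16.95, 11.53 and 15.11. An intergenic region 192002 bp downstream of Rplp1 (15.73, 14.4, 15.18 and 18.19) and another 11476 bp upstream of Rps14 (12.49, 15.45, 17.27 and 12.46) completed the 5 highest. As deposited, the groups overlapped in 4 of the 5 and were apart at the Kank3 exon, where both IL-4 values were the lower ones. After normalisation they overlapped there too, and were apart at the region of Rplp1, with the IL-4 values the higher ones.

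The distal members with the most positive differences were near genes already named. A region 1612 bp upstream of Rps27a had 4.33 and 3.71 in control and 9.5 and 7.64 in IL-4 libraries, without overlap (1.33 ± 0.53, SE; adjusted p = 0.476, limma). A region 22567 bp downstream of the start of Rpl5 had 10.54 and 4.04 against 13.27 and 9.69 (1.01 ± 0.49; adjusted p = 0.586). This value was 0.45 without control replicate 2 and 1.59 without control replicate 1. Both had an unadjusted p below 0.05, and neither passed the adjusted threshold.

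Regions seen in a single group were few. A peak in both IL-4 libraries and in neither control library was found at 3 of the 170 members, beside 2.53% of all 60710 regions, and the reverse at 5, beside 4.33%. The IL-4 group had the regions 310 bp upstream of Rpl32 (5.52 and 3.67), 47259 bp upstream of Rps13 (4.11 and 5.05) and 1035 bp downstream of the start of Rps4x (5.34 and 2.39). The control group had those at the start of Rpl36 (8.78 and 2.86) and 7554 bp upstream of Rpl29 (5.65 and 6.18), 2 far downstream of Rplp1 (3.78 to 5.65) and 1 downstream of Rps20 (4.23 and 6.15). The highest of these values was 8.78. The promoter of Rpl32 was not open in the IL-4 libraries alone, since the first control library had a separate peak of 4.91 located 76 bp upstream of the start.

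Paralogs of ribosomal proteins differed from one another. Rpl22l1 had the highest promoter of all members and a log2 difference of 0.03 ± 0.21, whereas Rps27l was among the most negative. Rpl7l1 had 3 weak promoter regions, each in 1 or 2 libraries (3.95 to 7.34). Rpl39l, best known from testis, had a distal region alone (7.56, 6.18, 6.62 and 2.44; 4418 bp upstream), and Rpl3l, of muscle, and Rpl10l, of testis, had no region. Expression was not measured in these files.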

How the data were processed

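ATAC-seq was analysed in 4 libraries of BMDMs, 2 control and 2 IL-4, grouped by the labels. The authors aligned reads to mm10 with BWA, called peaks per library with MACS2, removed blacklisted regions and annotated peaks with HOMER. The submitters' processing notes name BWA 0.7.10, SAMtools 0.1.19, HOMER 4.2 and MACS2 2.0.10. Handling of the Tn5 shift, duplicates and mitochondrial reads is not given in the sources used here. The deposited peak score has no stated unit and was read as −log10 of the q-value, since the lowest values (1.3 to 1.32) are near −log10 of 0.05. The methods state a q cut-off of 0.01.

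Autosomal, X and Y peaks were merged at 1 bp overlap, and a region took the highest score of each library and the name of its highest peak. Scores were log2-transformed without a pseudocount, quantile-normalised over the 25442 regions found in every library and fitted with limma 3.58.1 in R 4.3.3 (trend), with Benjamini-Hochberg adjustment over all regions. The code of the fit was run on simulated data with planted log2 differences larger than any seen at the members. That run does not show how often differences of the size seen here would be found. DiffBind, which the authors ran on reads, was not used. No test was made over the members as a list. The named promoters are the 5 most positive, 5 most negative, 5 highest and 5 lowest, the 5 highest distal members, genes lacking a promoter region or one in all 4 libraries, genes of known role and paralogs. The distal members of Rps27a and Rpl5, Rpl34-ps1, Csf1r and Emr1 were named after their values were seen. Members, lists and motifs were chosen with earlier results of these data known. Some genes are not reported here.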

Additional observations from a re-analysis of the deposited data

How the results depend on the processing

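No member was called under any alternative (no normalisation, median scaling, no variance trend, replicate block, scores of at least 2, merging within 100 bp, peaks in at least 2 libraries, or leaving out each library), nor was any region of the other translation genes. With 2 libraries per group and unknown depth, moderate differences could be missed. The number of members with an unadjusted p below 0.05 was 8, and it was 5 without normalisation (0 higher, 5 lower), 14 of 135 with peaks in at least 2 libraries, and 3 to 8 when 1 library was left out, with 3 without control replicate 2 and 5 without IL-4 replicate 2. The median log2 change of the members, −0.132, was −0.364 without normalisation, where that of all regions shifted to −0.211, and −0.179 to −0.033 when 1 library was left out. The cause was not tested. Share of promoters with a pyrimidine start was 42.7% when the C could lie within 5 bases, by its wider definition. Rpl23a ranged from −0.44 (without control replicate 1) to 1.84 (without control replicate 2), and the other 153 of 154 values of single regions kept their direction. Without normalisation Rpl23a was at 0.42, Rpl7 at 0.38 and Rps14 at 0.33. Libraries of the same replicate number did not deviate together (r = 0.007 between the replicate differences of the 2 groups, across regions). This does not tell whether they share a mouse or a culture. With the replicate block 8 members had an unadjusted p below 0.05 in limma and the median was −0.132. Promoter height and sharing moved by less than their error.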
